A study of Mus musculus with 8 samples.

Results

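The *Ugt1a* cluster on mouse chromosome 1 was described in Cut & Tag peak lists of differentiated brown adipocytes. It is made up of 9 genes, *Ugt1a1*, *Ugt1a2*, *Ugt1a5*, *Ugt1a6a*, *Ugt1a6b*, *Ugt1a7c*, *Ugt1a8*, *Ugt1a9* and *Ugt1a10*, of the 21887 protein-coding genes in the reference table (RefSeq, GRCm38.p6), and all 9 were found there. The members were chosen by their shared last exons and by a measured value, namely that EBF2 peaks stood at the cluster in the Vec lists and not in the Cre lists, so that this difference is given here as a description without a test. The lists are of peaks already called, and they show where a library passed the threshold of the caller, not how much transcript a gene makes.

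UGT1A enzymes sit in the endoplasmic reticulum and join glucuronic acid from UDP-glucuronate to small fat-soluble molecules, which can then be excreted in bile or urine. Each gene of the cluster has its own promoter and its own first exon, which encodes the part of the enzyme that holds the substrate, and every first exon is spliced to the same set of last exons, which encode the part that binds UDP-glucuronate. The cluster is best known in liver and gut, where UGT1A1 conjugates bilirubin and UGT1A6 conjugates phenols. EBF2 is a transcription factor of the brown adipocyte lineage, and H3K27ac, acetylation of lysine 27 on histone H3, marks active promoters and enhancers.

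The cells (BAC) were brown preadipocytes that came from newborn mice (*Cars2* flox/flox, interscapular brown fat) and had been made immortal with SV40 large T antigen, which makes them 1 line and not separate animals. Vec cells (BAC-V, genotype given as WT) carried the empty retroviral vector and so kept the floxed *Cars2* alleles. Cre cells (BAC-Cre, CarS2-KO) received pMSCV-Cre and thereby lost *Cars2*, the gene for the mitochondrial cysteinyl-tRNA synthetase. Both lines were selected with hygromycin and differentiated with IBMX, indomethacin, dexamethasone, insulin and T3, and 50000 cells went into each sample. For each of the 2 antibodies there were 2 Vec and 2 Cre libraries, 8 in all, with 1 peak list per library. Nothing in the labels says that the 2 libraries of a group came from separate cultures, so that the spread between them may be technical. Peak names in the list of EBF2 Cre replicate 1 carry Cars2AKO and those in EBF2 Vec replicate 1 carry WT. In the paper, AKO names mice that lack *Cars2* in all adipose tissues, not these cells. Which material the name refers to could not be settled here, and the labels were followed.

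The EBF2 lists held 724 and 533 peaks in Vec and 660 and 676 in Cre, and the H3K27ac lists held 836 and 646 in Vec and 673 and 902 in Cre. The number of reads is unknown. However, whole-number coverage at the summit could be recovered from the fold and p-value for 96.7% to 99.8% of the EBF2 peaks of a list, and most of these shared 1 background coverage, which was 7.38 and 1.39 in the Vec libraries and 8.26 and 8.76 in the Cre libraries. Vec replicate 2 therefore stood apart from the other 3 EBF2 libraries, and values that rest on it are given for each library separately. No peak lay within 10 kb of any of the 7 adipocyte markers (such as *Adipoq* and *Fabp4*) or the 6 brown adipocyte markers (such as *Ucp1* and *Cidea*) in any list, so the labelled cell type could not be checked here. Among all protein-coding genes 8.89% had a peak that close in at least 1 of the 8 lists, so that few or no peaks at a list of this size is near the background. Of the 5 hepatocyte markers only *Serpina1a* had a peak, in EBF2 Vec replicate 1 and all 4 H3K27ac lists, and none of the 3 intestinal, 3 fibroblast or 2 immune markers had one.

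All members with a strand in the table (8 of 9) read from left to right and start one after another. *Ugt1a10* (gene ID 394430) starts first, at 88055411, followed by *Ugt1a9* (394434) 15.4 kb further on, *Ugt1a8* (613123) at 32.4 kb, *Ugt1a7c* (394432) at 39.6 kb, *Ugt1a6b* (394435) at 47.8 kb, *Ugt1a6a* (94284) at 79.4 kb, *Ugt1a5* (394433) at 111 kb, *Ugt1a2* (22236) at 145 kb and *Ugt1a1* (394436) at 157 kb. *Ugt1a8* and *Ugt1a6b* end at 88218998 and the other 7 at 88220002. The gene spans are thus nested, from 165 kb for *Ugt1a10* to 8.04 kb for *Ugt1a1*, and a single peak in the shared stretch is counted for several members. The members are for this reason not independent observations of a peak. Exon borders were not used here, so a peak is placed by its distance to the gene starts and not as exonic or intronic.

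The 250 bases before the start are printed for the pair of members whose starts lay under peaks, *Ugt1a10* and *Ugt1a6a*, for *Ugt1a9*, whose promoter was the most similar to that of *Ugt1a10*, and for *Ugt1a1*, the bilirubin enzyme, whose start was far from every peak. They are RefSeq sequence of GRCm38.p6 from 5′ to 3′, and capitals mark the longest run of bases that *Ugt1a10* and *Ugt1a9* share.
Ugt1a10 (chr1:88055161-88055410, + strand): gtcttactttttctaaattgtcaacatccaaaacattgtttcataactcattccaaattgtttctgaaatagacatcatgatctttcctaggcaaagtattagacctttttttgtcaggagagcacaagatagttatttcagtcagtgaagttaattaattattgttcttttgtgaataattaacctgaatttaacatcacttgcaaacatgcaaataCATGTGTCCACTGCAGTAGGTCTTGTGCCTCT
Ugt1a9 (chr1:88070529-88070778, + strand): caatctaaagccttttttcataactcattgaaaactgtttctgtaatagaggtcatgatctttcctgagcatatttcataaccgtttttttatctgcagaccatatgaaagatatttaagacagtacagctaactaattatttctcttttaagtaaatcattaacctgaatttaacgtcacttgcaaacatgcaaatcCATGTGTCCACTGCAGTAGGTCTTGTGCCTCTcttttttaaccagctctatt
Ugt1a6a (chr1:88134559-88134808, + strand): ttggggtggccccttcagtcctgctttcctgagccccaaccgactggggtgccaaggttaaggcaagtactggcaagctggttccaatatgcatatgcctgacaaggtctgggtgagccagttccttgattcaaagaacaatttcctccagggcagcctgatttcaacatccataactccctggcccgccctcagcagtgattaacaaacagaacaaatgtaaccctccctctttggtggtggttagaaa
Ugt1a1 (chr1:88211709-88211958, + strand): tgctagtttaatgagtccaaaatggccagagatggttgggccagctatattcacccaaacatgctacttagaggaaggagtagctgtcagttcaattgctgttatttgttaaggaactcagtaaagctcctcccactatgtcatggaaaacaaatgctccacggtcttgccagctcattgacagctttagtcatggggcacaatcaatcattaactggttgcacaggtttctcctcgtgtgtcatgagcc
The promoters differed in base composition, with a GC content of 32.4% in *Ugt1a10*, 33.2% in *Ugt1a9*, 51.2% in *Ugt1a6a* and 44.8% in *Ugt1a1*. Over the 28 pairs among the 8 members in the promoter table, identity after alignment ranged from 46.6% to 71.2% with a median of 50.9%. The most similar pair was *Ugt1a10* and *Ugt1a9*, at 71.2% and with an identical run of 32 bases, which begins at position −32 from the start of *Ugt1a10* and at −52 from that of *Ugt1a9*. How reads that match more than 1 place were treated is not given in the sources used here.

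Motifs were counted on both strands in windows of 300 bases, 250 before and 50 after the start, over the 8 members and over all 32851 promoters of the table. The core of the EBF palindrome, CCCNNGGG, was in 0 of 8 members against 13.7% of all promoters, which says only that these letters are not in these windows. GCGTG, the core of the element bound by the dioxin receptor AHR, was in *Ugt1a8* and *Ugt1a5* (2 of 8 against 32.4%), AGGTCA, a core element of nuclear receptors, was in *Ugt1a9* and *Ugt1a7c* (2 of 8 against 16.3%), and TGACNNNGC, the antioxidant response element, was in 0 of 8 against 12.4%.

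EBF2 peaks stood at the cluster in the 2 Vec lists and not in the Cre lists. EBF2 Vec replicate 1 had 3 peaks. The first, from 88044632 to 88060428 (15.8 kb), ran over the start of *Ugt1a10*, with a score of 45 (10 times the −log10 q-value), a fold of 2.87 over the background of the caller and a summit coverage of 23. The second, from 88107906 to 88131934 (24.0 kb), lay between the starts of *Ugt1a6b* and *Ugt1a6a* and contained neither. It was the strongest by score, at 131, with a fold of 4.09 and a summit coverage of 42 over a background of 9.52. The last was short, from 88133526 to 88135235 (1.71 kb), and contained the start of *Ugt1a6a*, with its summit 592 bases upstream of that start. It had the highest summit coverage, 58, over the highest background, 23.7, so that its fold was only 2.39.

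EBF2 Vec replicate 2 also had 3 peaks, all of them inside the first and second peaks of replicate 1. The first lay upstream of *Ugt1a10*, from 88049384 to 88051177 (1.79 kb), with a summit coverage of 7. The other two, from 88057543 to 88060052 (2.51 kb) and from 88118827 to 88129502 (10.7 kb), each had a summit coverage of 8 and a fold of 3.77. In this library no member start lay inside a peak, against 2 (*Ugt1a10* and *Ugt1a6a*) in replicate 1, and the *Ugt1a6a* promoter peak was not listed. These coverages were close to the lowest coverage listed in that library, which was 6, with a median of 8. In replicate 1, where the lowest was 16 and the median 20, all 3 peaks were above the median.

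Ranked by score within their lists, the EBF2 peaks at the cluster were between the best 25.1% and 38.5% in Vec replicate 1 and between 40.2% and 48.4% in Vec replicate 2. Peaks of equal score were given the best rank they share, and the peak at 48.4% had the median score of its list, 23. The 6 peaks had folds of 2.39 to 4.09 where the highest fold of these lists was 93.0 and 70.7. In the Cre libraries, the lowest summit coverage listed was 18 in both replicates, over backgrounds of 8.26 and 8.76. Coverages of libraries with different backgrounds are not on 1 scale, and those of Vec and Cre were not compared. What coverage the Cre libraries had at the cluster is not seen in the lists, which show only that it did not pass the threshold.

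**Figure D1:**
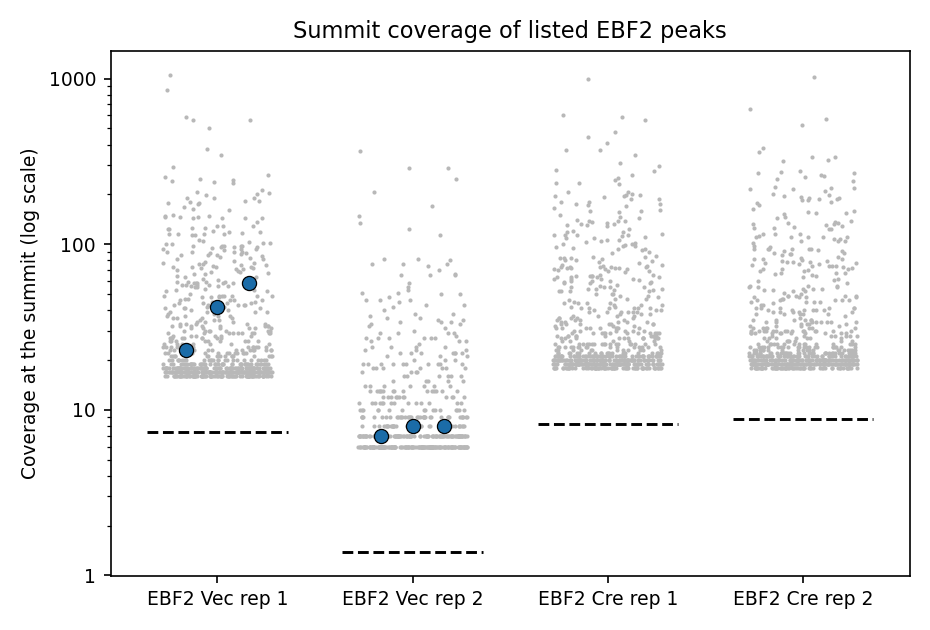
Summit coverage (log scale) of each EBF2 peak with recovered coverage, by library, with peaks at the *Ugt1a* cluster as large blue points, all others as grey points spread sideways at random, and the common background of each library as a dashed line. The 3 cluster peaks of Vec replicate 1 lie at 23, 42 and 58, those of Vec replicate 2 at 7, 8 and 8, and the Cre libraries have none.

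The 4 EBF2 lists merged into 816 regions, of which 4 (0.490%) had a peak in both Vec replicates but in no Cre replicate. At the cluster there were 2 such regions, 88044632 to 88060428 and 88107906 to 88131934, and since this pattern was used to choose the cluster nothing is read from the count. The count was 0 when only peaks of 10 kb or less were kept, and 0 when each list had to cover at least 50% of a region. The other two were on chromosome 5, from 145717493 to 145724251 beside *Cyp3a41a*, and on chromosome Y, from 77254949 to 77293791. Counted by gene, 7 of the 21887 protein-coding genes (0.0320%) had such a region in the gene or within 10 kb, and 6 of the 7 were *Ugt1a* members that share the same regions. In the opposite direction, 31 regions (3.80%) had a peak in both Cre replicates but in no Vec replicate, and 0 of these were at the cluster. The counts of 4 and 31 both depend on Vec replicate 2, which had the fewest peaks (533) and the lowest background (1.39) of the EBF2 lists. They were therefore not compared. The third EBF2 region of the cluster, over the *Ugt1a6a* promoter, was in Vec replicate 1 only.

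Most EBF2 regions that both Vec lists shared were in the Cre lists too. Of 209 regions in both Vec lists, 195 (93.3%) were in both Cre lists, 10 in 1 of them and 4 (1.91%) in neither. Among the 125 that were wider than 10 kb and on autosomes, 121 (96.8%) were in both Cre lists, 2 in 1 of them and 2 in neither. These last were the upstream and middle stretches of the *Ugt1a* cluster. The cluster was chosen on this pattern, so nothing is read from its place among these regions. Upstream, the width of 15.8 kb came from Vec replicate 1, and the peaks of Vec replicate 2 there were 1.79 and 2.51 kb long.

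H3K27ac peaks overlapped both stretches in all 4 lists, with different borders. Upstream, each of the 4 lists had 1 peak over the start of *Ugt1a10*. It ran from 88041708 to 88055780 in Vec replicate 1 (14.1 kb), from 88041163 to 88057737 in Vec replicate 2 (16.6 kb), from 88043348 to 88060570 in Cre replicate 1 (17.2 kb) and from 88041278 to 88063977 in Cre replicate 2 (22.7 kb). Both Cre peaks were longer than both Vec peaks and ended further into the cluster. Between the starts of *Ugt1a10* and *Ugt1a9*, 2.41% and 15.1% of the 15.4 kb were covered in Vec and 33.6% and 55.7% in Cre. Over the whole merged region (22.8 kb), peaks covered 14.1 and 16.6 kb in Vec and 17.2 and 22.7 kb in Cre, an order that 29 of the 307 H3K27ac regions found in all 4 lists had as well (9.45%).

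The middle stretch went the other way. In Vec a single H3K27ac peak ran from 243 bases after the start of *Ugt1a6b* through the start of *Ugt1a6a*, from 88103500 to 88135657 in replicate 1 (32.2 kb) and from 88103647 to 88135554 in replicate 2 (31.9 kb, beginning 390 bases after the *Ugt1a6b* start). In Cre it was divided into a long peak and a short one over the *Ugt1a6a* start. The long one ran from 88103628 to 88129468 (25.8 kb) in replicate 1 and from 88107961 to 88130023 (22.1 kb) in replicate 2. The short one ran from 88133732 to 88135404 (1.67 kb) in replicate 1 and from 88134058 to 88135107 (1.05 kb) in replicate 2. From the start of *Ugt1a6b* to that of *Ugt1a6a* (31.6 kb), 99.2% and 98.8% were covered in Vec and 85.3% and 72.3% in Cre. The gap that both Cre libraries shared lay in front of the *Ugt1a6a* promoter. Over this merged region (32.2 kb), peaks covered 32.2 and 31.9 kb in Vec and 27.5 and 23.1 kb in Cre, and both Vec values were above both Cre values in 77 of the 307 regions (25.1%), so that this order was common in the genome.

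**Figure D2:**
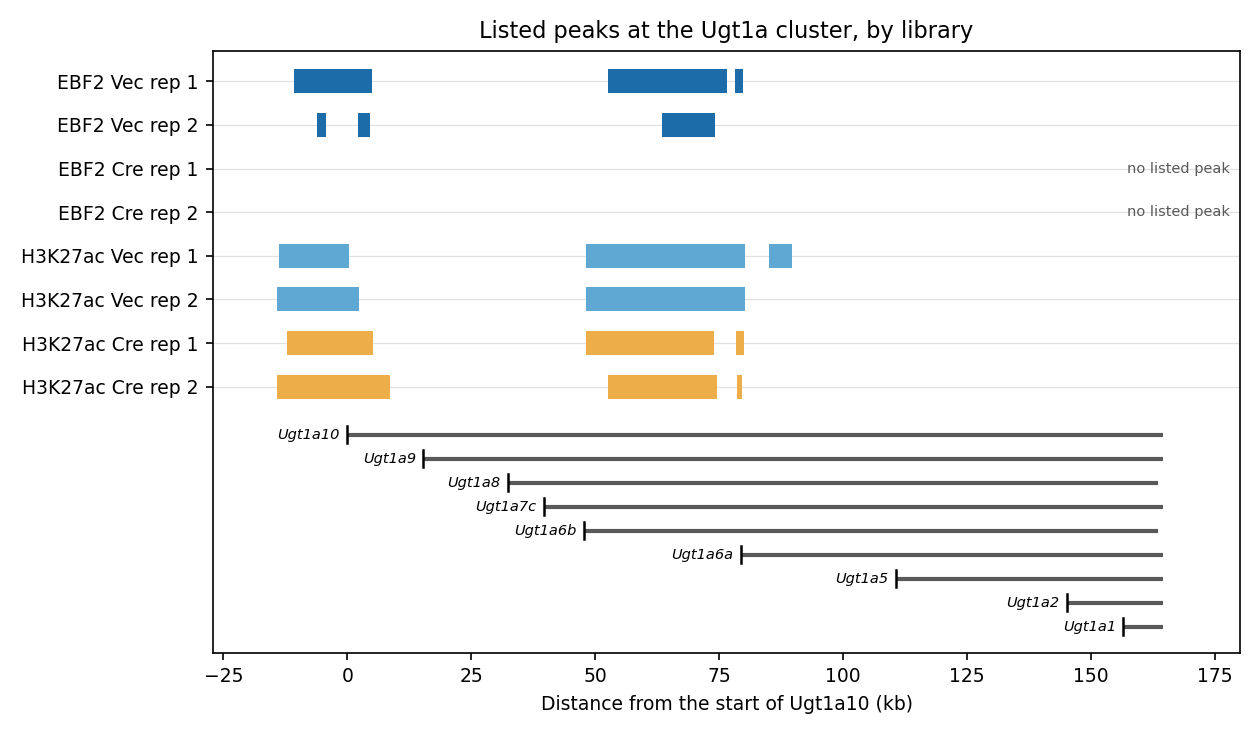
Peaks listed at the *Ugt1a* cluster in each library (bars; EBF2 Vec dark blue, H3K27ac Vec light blue, H3K27ac Cre orange) and the spans of the 9 genes (grey lines, with a black tick at the start), against the distance from the *Ugt1a10* start in kb. Peaks group at the *Ugt1a10* start and between the starts of *Ugt1a6b* and *Ugt1a6a*, the EBF2 Cre rows are empty, and no peak lies at *Ugt1a5*, *Ugt1a2* or *Ugt1a1*.

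The 4 H3K27ac lists merged into 1208 regions, and 2 regions of the cluster, 88041163 to 88063977 (22.8 kb) and 88103500 to 88135657 (32.2 kb), were in all 4 lists, as were 307 regions of the genome (25.4%). Counted by gene, 6 of 9 members had a region of all 4 lists in the gene or within 10 kb, against 5.55% of all protein-coding genes, the 6 again sharing the same regions. The third region, from 88140506 to 88145077 (4.57 kb) in the interval between *Ugt1a6a* and *Ugt1a5*, was in H3K27ac Vec replicate 1 only. Regions in both Vec and neither Cre list made up 3.06% of the 1208 and those in both Cre and neither Vec list 1.41%, and the cluster had 0 of either. The 4 H3K27ac lists and both EBF2 Vec lists overlapped in 1 common piece upstream of *Ugt1a10*, from 88049384 to 88051177 (1.79 kb), and in 1 in the middle stretch, from 88118827 to 88129468 (10.6 kb).

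By rank within its list, the middle H3K27ac stretch was among the best 16.0% and 20.4% in Vec and 23.8% and 28.6% in Cre. The 2 Vec values were better than both Cre values, as in 48 of the 307 regions (15.6%). Its score was 247 and 139 in Vec and 91 and 54 in Cre, and its mean fold was 3.18 and 3.58 in Vec and 3.15 and 2.56 in Cre. These scores and folds are values of separate lists and were not compared. The Vec peaks here include the *Ugt1a6a* promoter and the Cre peaks do not. The upstream stretch ranked at 55.9% and 54.6% in Vec and at 50.8% and 23.5% in Cre, where only Cre replicate 2 stood apart from the other 3 libraries. The short *Ugt1a6a* promoter peaks of Cre ranked below the middle stretch of the same library, at 42.8% and 60.0%. Scores grow with the depth of a library, which was not known for H3K27ac, and the part of depth in these ranks and lengths was not tested.

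**Figure D3:**
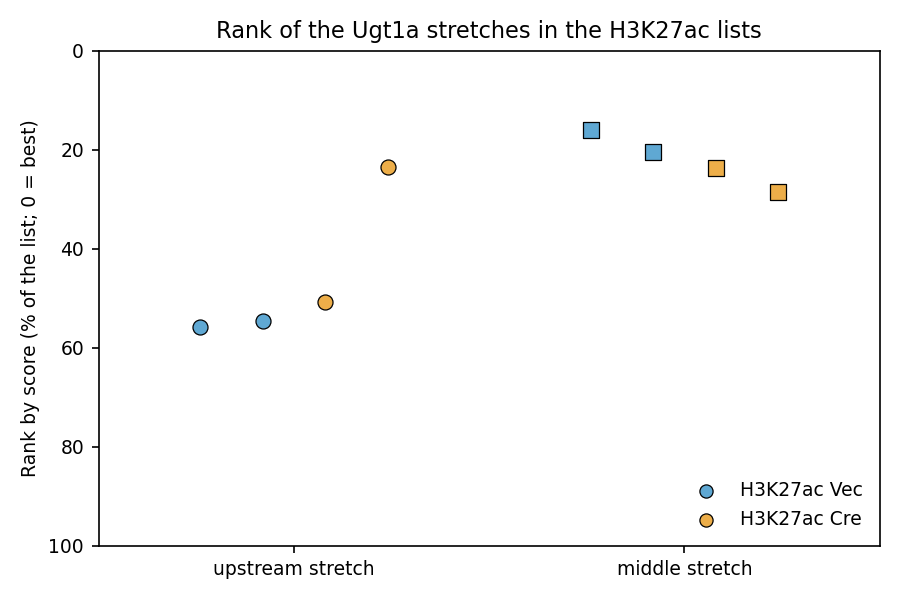
Rank by score of the upstream (circles) and middle (squares) H3K27ac stretch of the *Ugt1a* cluster within each list, in percent of the list with the best peak at the top, for Vec (blue) and Cre (orange), replicate 1 left of replicate 2. The middle stretch lies between 16.0% and 28.6% in the 4 libraries, and the upstream stretch at 50.8% to 55.9% in all but Cre replicate 2 (23.5%).

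In length, the window from 10 kb before *Ugt1a10* to 10 kb after the shared end (88045411 to 88230002, 185 kb) held 40.8 and 15.0 kb of EBF2 peaks in the Vec libraries and 0 kb in both Cre libraries. The Vec mean was 27.9 ± 18.2 kb (SD, n = 2), and the spread between the 2 Vec libraries was large beside it. The difference of −27.9 kb (Cre minus Vec) was −15.0 kb without Vec replicate 1 and −3.01 kb with peaks of 10 kb or less. H3K27ac peaks covered 47.1 and 44.2 kb in Vec, 45.7 ± 2.03 kb (SD, n = 2), and 42.7 and 41.7 kb in Cre, 42.2 ± 0.703 kb (SD, n = 2). The difference of −3.49 kb (Cre minus Vec) was −2.06 kb without Vec replicate 1 and −0.92 kb when only peaks of 10 kb or less were kept. It is not weighed against these SDs, which rest on 2 libraries each and may be technical. Both Vec values were above both Cre values, which was also the case for 58 of the 387 protein-coding genes (15.0%) that had an H3K27ac peak inside or at most 10 kb away in all 4 lists and whose window was not wholly covered in each of them. The 47.1 kb of Vec replicate 1 include the 4.57 kb region listed in that library only. Without that region, Vec replicate 1 would lie below the 42.7 kb of Cre replicate 1. The difference of −3.49 kb also joins opposite shifts, since H3K27ac peaks were longer in Cre at the upstream stretch and shorter in the middle stretch. The H3K27ac lists thus covered 22.6% to 25.5% of the window in all 4 libraries, whereas the EBF2 lists covered 22.1% and 8.12% in Vec and 0% in Cre.

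**Figure D4:**
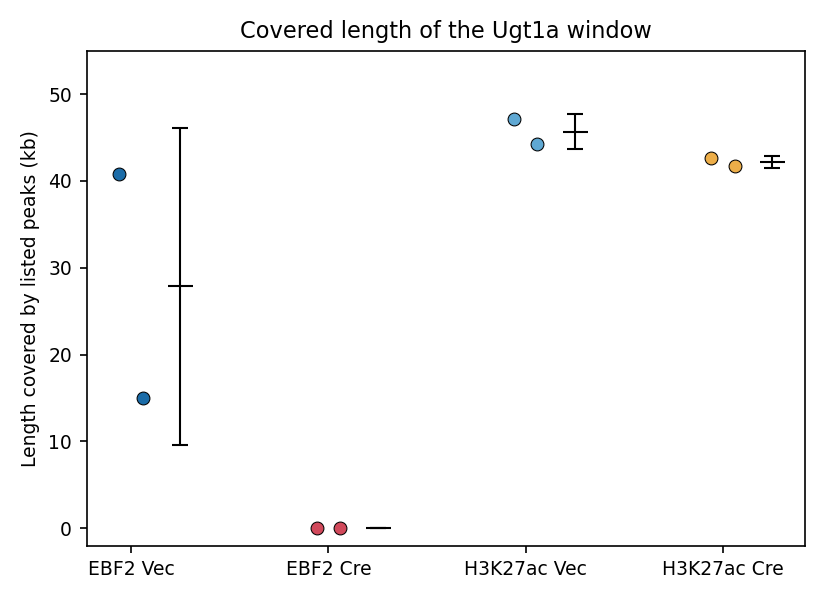
Length of the *Ugt1a* window (185 kb) covered by listed peaks, in kb, for each library (points) with the mean and SD of each group of 2 libraries (bars at the right of each group). EBF2 covers 40.8 and 15.0 kb in Vec and 0 kb in Cre, and H3K27ac covers 41.7 to 47.1 kb in all 4 libraries.

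By member, the peaks divided the cluster into a part with peaks and a part without. *Ugt1a10*, *Ugt1a9*, *Ugt1a8*, *Ugt1a7c*, *Ugt1a6b* and *Ugt1a6a* (6 of 9) had a peak inside or at most 10 kb away in both EBF2 Vec lists and in all 4 H3K27ac lists, and 0 of 9 had one in the EBF2 Cre lists. For all protein-coding genes the share was 5.13% and 3.85% in EBF2 Vec, 5.17% and 4.95% in EBF2 Cre, and 5.60% to 7.20% in the H3K27ac lists. Only *Ugt1a10* and *Ugt1a6a*, the latter for a phenol-conjugating enzyme, had their starts inside a peak, in EBF2 Vec replicate 1 and all 4 H3K27ac lists. The share of all genes with a start inside a peak is not given here, so this count is a description only. *Ugt1a6b*, a close relative of *Ugt1a6a*, started 0.243, 0.39 and 0.371 kb from the nearest H3K27ac peak in Vec replicates 1 and 2 and Cre replicate 1, and 4.70 kb from it in Cre replicate 2, and so lay outside the peaks in each list. Its nearest EBF2 peak in Vec was 4.65 and 15.6 kb away. *Ugt1a9* started 6.80 to 15.0 kb from the nearest H3K27ac peak and 10.4 and 10.7 kb from the nearest EBF2 peak in Vec, and no peak lay between its start and that of *Ugt1a6b*, where *Ugt1a8* and *Ugt1a7c* start.

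*Ugt1a5*, *Ugt1a2* and *Ugt1a1* had no peak inside or at most 10 kb away in any of the 8 lists. The start of *Ugt1a5* was 20.9 to 30.9 kb from the nearest H3K27ac peak. The start of *Ugt1a1* was 66.9 to 76.9 kb from it and 76.7 and 82.5 kb from the nearest EBF2 peak in Vec. The shared last exons, which lie at the end of the cluster, were in the 8.04 kb from the *Ugt1a1* start to 88220002, and no list had a peak there.

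The other genes of the window had peaks only where the members did. Of 6 pseudogenes, *Gm15372* (88126718 to 88127610) lay wholly inside the middle peak in both EBF2 Vec lists and all 4 H3K27ac lists. *Gm38421* (88055411 to 88056340), which begins at the same base as *Ugt1a10*, was covered completely in EBF2 Vec replicate 1 and in 3 H3K27ac lists and to 39.8% in H3K27ac Vec replicate 1. The remaining 4 pseudogenes and the protein-coding genes *Dnajb3* and *Mroh2a* were not covered in any list. None of the 14 protein-coding neighbours within 500 kb had a peak within 10 kb in any list. Among all protein-coding genes 8.89% had one in at least 1 list, so none among 14 is near the background. Outside the cluster, the nearest peak was 1.70 to 2.44 Mb upstream and 2.80 to 5.64 Mb downstream, depending on the list. The EBF2 lists held 12 to 25 peaks on the whole chromosome and the H3K27ac lists 44 to 66. Peaks were thus sparse on it, and nothing particular to the cluster is read from these distances. In the EBF2 Cre lists the stretch without peaks reached from 2.42 and 2.41 Mb before the *Ugt1a10* start to 5.61 and 5.63 Mb after the shared end.

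Other genes of glucuronidation were near the background, at which 8.89% of all protein-coding genes had a peak this close in at least 1 list. None of the 4 genes for supply and removal of glucuronic acid (such as *Ugdh*, which makes UDP-glucuronate), the 7 for haem and bilirubin handling (such as *Hmox1* and *Blvra*, which make bilirubin from haem) and the 6 for regulators (such as *Ahr* and *Nr1i2*) had a peak inside or at most 10 kb away in any list. Of 13 other glucuronosyltransferases only *Ugt3a1* on chromosome 15 had one, in EBF2 Cre replicate 2 (9316218 to 9319635) and in 3 of the 4 H3K27ac lists (Vec replicates 1 and 2 and Cre replicate 1). Among clustered families, 0 of 10 *Ugt2* genes had a peak in any list, which at that background says nothing particular about them. The *Amy* (amylase), *Mup* (major urinary protein) and *Cyp3a* (drug-oxidizing cytochrome P450) families had peaks in all 8 lists, at 4 of 7, 16 to 17 of 22 and 2 of 9 genes, where neighbours share peaks and the share of all protein-coding genes was 3.85% to 7.20% per list, so that both Cre lists held EBF2 peaks at these families. Of these genes, *Cyp3a41a* also had 1 EBF2 region in both Vec replicates but in no Cre replicate, the region on chromosome 5 named above.

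The genes most like the cluster in covered percentage over the 8 lists, by the mean absolute difference from the *Ugt1a* window among 21864 protein-coding genes, were *H3c14* (4.02 percentage points), *H2ac18* (4.64), *Tcp1* (5.43), *Slc22a21* (5.66) and *Hypk* (6.09). A gene with no peak would differ by 15.7 points. *H3c14* and *H2ac18*, histone genes side by side on chromosome 3, were covered to 21.3% to 27.2% and 15.4% to 21.1% in the H3K27ac lists. Both had EBF2 peaks in Cre replicate 1 (13.1% and 6.89%), and none of the 5 genes had an EBF2 peak in Vec replicate 2. *Tcp1*, for a chaperonin subunit, and *Slc22a21*, for a carnitine transporter, had EBF2 peaks in Vec replicate 1 only (3.51% and 8.17%). EBF2 peaks in both Vec replicates and in no Cre list were the pattern used to choose the cluster. Nothing is therefore read from the lack of that pattern in these 5 genes.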

How the data were processed

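Cut & Tag with antibodies against EBF2 (8 µg/mL) or H3K27ac had been done on differentiated Vec and Cre BAC, with 2 libraries per group. The submitters' processing notes name bcl2fastq 2.17, Trimmomatic 0.33, HISAT2 2.2.1, MACS2 2.2.7 and the build mm10, and the control, duplicate handling and caller thresholds are not given in the sources used here. The authors deposited 1 peak list per library, narrow peaks for EBF2 and broad peaks for H3K27ac. For each peak the authors give a score (10 times the −log10 q-value as a whole number), a fold (coverage as a ratio to the caller's background), and −log10 of the p-value and q-value, which in broad lists are means over the peak. These values depend on depth, so scores, folds and coverages are given as values of their own list. Between lists, ranks within a list and the presence, positions and lengths of peaks were compared. Presence, positions and lengths also rest on the threshold of the caller.

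Peaks were read with Python 3.11.15 (numpy 2.4.6, pandas 2.3.3, scipy 1.17.1), and a peak counted for a gene when it overlapped the gene or 10 kb around it by at least 1 bp. The 4 lists of an antibody were merged into regions. EBF2 summit coverage k and background b were solved from fold = (k + 1) / (b + 1) and the Poisson p-value, and kept where k was whole within 0.001 in −log10 p. Promoters (RefSeq, GRCm38.p6) were aligned with Biopython 1.88, and figures were drawn with matplotlib 3.10.9. The region counts and the coverage recovery were tested on simulated data. The 9 members, the gene lists, families, motifs and rules were chosen with earlier results of these data known. The genes named for their own values were the members and genes within 10 kb of the cluster. Added to these were pathway, marker or family genes with a peak and the 5 genes most alike over 500 kb away. Genes such as *Adipoq*, *Ucp1*, *Ugdh*, *Hmox1* and *Ahr* were named only as examples of lists in which no gene had a peak. One regulator and its motif are not reported here. No test was made, because the members were chosen on the difference itself. Precision is limited by 2 libraries per group, and read depth is unknown. Alternatives were gene windows of 0 or 50 kb, peaks with at least the median score, peaks of 10 kb or less, merging within 500 bp, 50% coverage of a region, presence in at least 1 replicate, and leaving out each library.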

Additional observations from a re-analysis of the deposited data

How the results depend on the processing

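All counts here are of regions at the cluster. The 2 EBF2 regions in both Vec and neither Cre list became 0 when only peaks of 10 kb or less were kept and 0 when a list had to cover at least 50% of a region, since the long Vec peaks are then dropped or Vec replicate 2 covers too little. Leaving out 1 library gave 2 to 3. The EBF2 covered length differed by −27.9 kb (Cre minus Vec), by −3.01 kb with peaks of 10 kb or less, and by −40.8 to −15.0 kb when 1 library was left out, the latter without Vec replicate 1. No EBF2 region of the cluster was in both Cre and neither Vec list under any alternative run. For H3K27ac, 0 regions in both Vec and neither Cre list became 1 with presence in at least 1 replicate, and 0 to 1 when 1 library was left out (1 without Vec replicate 2). In the opposite direction 0 became 1 with peaks of 10 kb or less. The short Cre peaks over the *Ugt1a6a* start are then kept, while the long Vec peaks that run over the same start are dropped. The H3K27ac covered length differed by −3.49 kb, by −0.92 kb with peaks of 10 kb or less, and by −4.92 to −2.06 kb when 1 library was left out, the latter without Vec replicate 1. Windows of 0 or 50 kb, peaks with at least the median score (29 for EBF2, 27 for H3K27ac) and merging within 500 bp changed none of the 4 region counts.

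No paired analysis was possible because the labels do not tie equal replicate numbers to a shared culture or day, and no result comes from a fitted model. A region missing from a list had no peak that passed the caller's threshold, and the lowest −log10 q-value listed was 1.30 to 1.60 in the EBF2 lists. That threshold is not 1 fixed coverage, because the background varied by place. It was 7.38 to 23.7 among the peaks of EBF2 Vec replicate 1 at the cluster. Vec replicate 2 had the lowest EBF2 background, 1.39, so its peaks rest on summit coverages of 7 and 8.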
